A study of Mus musculus with 36 samples.

Results

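The 37 genes described here make or supply cholesterol and fatty acids. They were matched by gene symbol among the 55414 gene identifiers of the deposited count tables, and all 37 were found. Of these, 18 are sterol enzymes: Acat2, Hmgcs1, Mvk, Pmvk, Mvd, Idi1 and Fdps of the mevalonate pathway, and Fdft1, Sqle, Lss, Cyp51, Tm7sf2, Msmo1, Nsdhl, Hsd17b7, Ebp, Sc5d and Dhcr7 from squalene to cholesterol. The fatty acid branch holds 14 genes: Acly, Acss2 and Me1 for the supply of acetyl-CoA and NADPH, Acaca, Acacb and Fasn for synthesis, Elovl1, Elovl5 and Elovl6 for elongation, Scd1, Scd2, Fads1 and Fads2 for desaturation, and Acsl3 for activation. The regulators are Srebf1, Srebf2, Scap and Insig1, and Stard4 transports sterols. The libraries were made from sorted mouse blood stem and progenitor cells that carried Kmt2a-AFF1, a leukaemia fusion of the histone methyltransferase gene Kmt2a with the gene AFF1. Leukaemia cells came from mice that also overexpressed a microRNA, named miR-130b in the sample labels and miR-130a in the series' design text, and had reached terminal disease. The controls carried the same fusion with a scrambled microRNA and had no leukaemia, so the fusion was common to all 9 groups.

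Leukaemia cells were taken from the central nervous system (CNS) and from the bone marrow (BM), and control cells from the BM. In each tissue the sort was for lineage-negative, c-Kit-positive cells. The gate for HSC (labelled HSC/MPP) took Sca-1 positive cells without Flt3, and that for LMPP, progenitors primed for the lymphoid lineages, took Sca-1 positive cells with Flt3. LK cells (labelled LK/CLP) lacked Sca-1. The 9 groups are thus CNS HSC, BM HSC and control HSC, CNS LMPP, BM LMPP and control LMPP, and CNS LK, BM LK and control LK, with 4 libraries in each. Each of the 12 leukaemia mice gave 1 CNS and 1 BM library of 1 cell type. Each of the 4 control mice gave all 3 cell types.

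Cholesterol is built from acetyl-CoA through the mevalonate pathway and squalene, and fatty acids are built from the same acetyl-CoA by carboxylation, chain synthesis, elongation and desaturation. Both branches are driven by the SREBP transcription factors, encoded by Srebf1 and Srebf2. The escort protein Scap carries them out of the endoplasmic reticulum when sterols are low, and Insig1 holds them back when sterols are high. Dividing blood progenitors and leukaemia cells need both products for new membranes.

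The promoters of 4 members are shown, since these genes come back in the results below and stand for the start and the middle of the sterol branch, the fatty acid branch and the regulators. Each is the 250 bases before the RefSeq start of the gene on its own strand, in build GRCm38.p6. Capitals mark a CCAAT box on either strand (CCAAT or ATTGG), to which the trimeric factor NF-Y binds, and the sterol regulatory element core TCACNCCAC, to which SREBPs bind.
Hmgcs1, chr13:119690101-119690350, plus strand: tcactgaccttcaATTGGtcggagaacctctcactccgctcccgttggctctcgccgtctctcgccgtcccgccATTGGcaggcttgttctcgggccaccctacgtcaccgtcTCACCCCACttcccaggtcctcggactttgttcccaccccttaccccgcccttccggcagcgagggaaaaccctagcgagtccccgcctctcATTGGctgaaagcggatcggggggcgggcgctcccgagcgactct
Cyp51, chr5:4104698-4104947, minus strand: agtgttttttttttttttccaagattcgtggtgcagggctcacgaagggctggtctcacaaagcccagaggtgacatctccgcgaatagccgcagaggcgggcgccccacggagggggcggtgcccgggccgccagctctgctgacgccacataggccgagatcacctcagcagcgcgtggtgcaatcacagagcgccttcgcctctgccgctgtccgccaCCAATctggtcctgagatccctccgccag
Fasn, chr11:120824548-120824797, minus strand: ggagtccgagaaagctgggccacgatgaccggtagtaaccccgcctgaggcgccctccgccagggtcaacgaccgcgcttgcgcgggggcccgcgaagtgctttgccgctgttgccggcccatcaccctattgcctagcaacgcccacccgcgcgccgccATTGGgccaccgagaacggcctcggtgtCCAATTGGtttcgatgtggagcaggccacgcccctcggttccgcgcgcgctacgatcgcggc
Srebf2, chr15:82147019-82147268, plus strand: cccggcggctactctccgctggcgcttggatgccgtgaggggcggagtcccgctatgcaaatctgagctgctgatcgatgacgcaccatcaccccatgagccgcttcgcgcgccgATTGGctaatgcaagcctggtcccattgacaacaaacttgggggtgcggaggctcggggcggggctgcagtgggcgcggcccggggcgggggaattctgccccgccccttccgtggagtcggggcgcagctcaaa
Hmgcs1, which encodes HMG-CoA synthase at the start of the mevalonate pathway, held 3 CCAAT boxes and 1 sterol regulatory element core. In Fasn, the fatty acid synthase gene, 2 of 3 CCAAT boxes overlapped on opposite strands. A promoter sequence was matched for 30 of the 37 genes. Of these, 24 (80.0%) held a CCAAT box, against 37.5% of the 27025 genes with such a sequence, and 24 (80.0%) held a GC box, GGGCGG, against 35.4%. Among sterol enzymes alone, 14 of 15 held each of these motifs. The E-box CACGTG lay in 6 of 30, against 6.86% of all genes. The TCACNCCAC core lay only in Hmgcs1 among the 30, against 1.22% of all genes. All motifs were searched on both strands, and a match is a match of letters in this window.

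The libraries held 1909638 to 30442297 counts each, with the fewest in BM LMPP 3. Counts per length at 1475 sensory receptor genes, a class not known for a role in blood cells, served as the background of each library. A gene counted as above background in a library with over 10 counts more than 3 times what its exon length would collect at that level. The background made up 0.267 to 13.1% of the counts of the 37 genes in the LMPP, LK and most HSC libraries of the leukaemia table and in control LK. It made up 36.3 to 41.3% in 3 leukaemia HSC libraries (CNS HSC 2 and 4 and BM HSC 4), and 20.95 to 47.87% in control HSC and LMPP. Accordingly, 25 to 36 of the 37 genes were above background in the first set, 7 to 10 in the 3 leukaemia HSC libraries and 3 to 22 in control HSC and LMPP. Levels are given in CPM, after scaling on genes above background, on 1 scale for all 36 libraries, and they include the background.

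**Figure D1:**
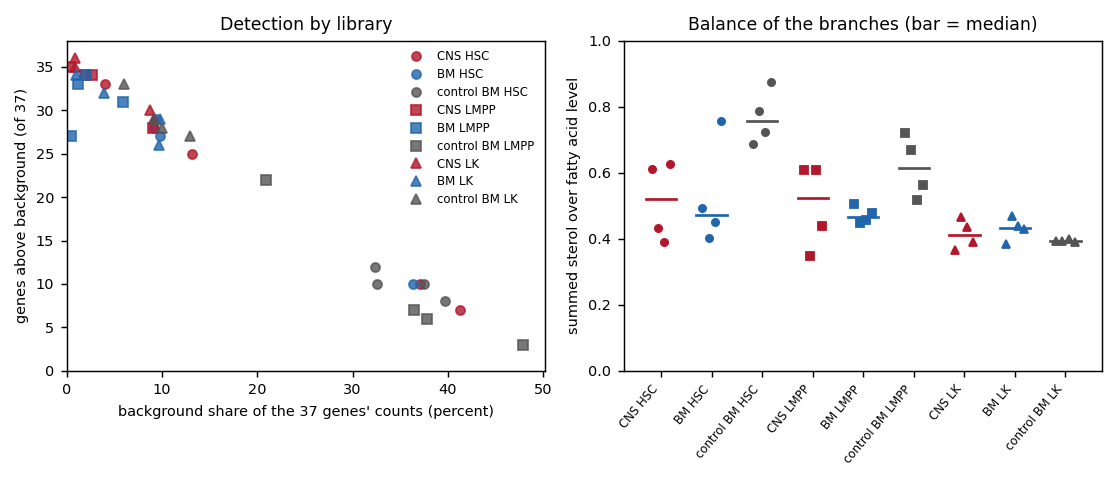
Left, number of the 37 genes above background (vertical axis) against the background's share of their counts in percent (horizontal axis), 1 point per library. Right, summed background-subtracted level of the sterol enzymes over that of the fatty acid genes in each library, with the median of 4 as a bar; in control HSC the background took 32.4 to 39.7% of these counts and 8 to 12 of the 37 genes were above it.

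Ly6a, which encodes Sca-1, was low in the Sca-1 negative LK gate (at most 2.47 CPM in CNS LK, 2.59 in BM LK and 2.88 in control LK) and at least 6.67 CPM in every HSC and LMPP library. Flt3 was at 238 to 412 CPM in CNS LMPP, 145 to 508 CPM in BM LMPP and 94.5 to 319.7 CPM in control LMPP. In the Flt3 negative HSC gate it was at 18.6 to 91.4 CPM in the CNS, 22.1 to 75.2 CPM in the BM and 22.8 to 27.5 CPM in control. The LK gate did not use Flt3, and there it was at 109 to 214 CPM in the CNS and 75.7 to 266.5 CPM in the BM, against 19.1 to 32.2 CPM in control LK. All 6 progenitor markers (Kit, Cd34, Ly6a, Flt3, Myb and Ptprc) were above background in every leukaemia LMPP library. Neuron markers were at background in all CNS libraries (0 of 6 above it), and at most 3 of 6 astrocyte markers were above it in any CNS library. Microglia markers summed to 70.7 to 1248 CPM in CNS HSC, against 35.5 to 95.9 CPM in BM HSC, and the highest value was that of CNS HSC 1. Mature neutrophil markers summed to 103 to 1100 CPM in CNS LK, against 394 to 7502 CPM in BM LK. In bulk RNA of sorted cells, fewer cells of a type and less RNA per cell cannot be told apart.

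The most abundant transcripts per length were those of Acly (ATP citrate lyase, which makes acetyl-CoA from citrate), Scd2 (a stearoyl-CoA desaturase), Srebf2 and Fasn. Group means of Acly ran from 9.16 to 26.7 CPM per kb, and averaged over the 9 groups Scd2, Srebf2 and Fasn had 15.3, 15.2 and 12.7 CPM per kb. Acly, Scd2 and Srebf2 were above background in all 36 libraries, and Fasn and Fads2 (a fatty acid desaturase) in 35. Among sterol enzymes, Ebp and Idi1 were highest, with 4.94 and 4.88 CPM per kb, and all other sterol enzymes averaged 1.18 to 4.44 CPM per kb. Acly, Scd2 and Fasn thus averaged more than any sterol enzyme. Me1, an enzyme that makes NADPH, was above background in 0 of 36 libraries. Scd1 was above background in 4, Hsd17b7 in 5 and Acacb, the mitochondrial acetyl-CoA carboxylase, in 6. These 4 genes were near background in most libraries.

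**Figure D2:**
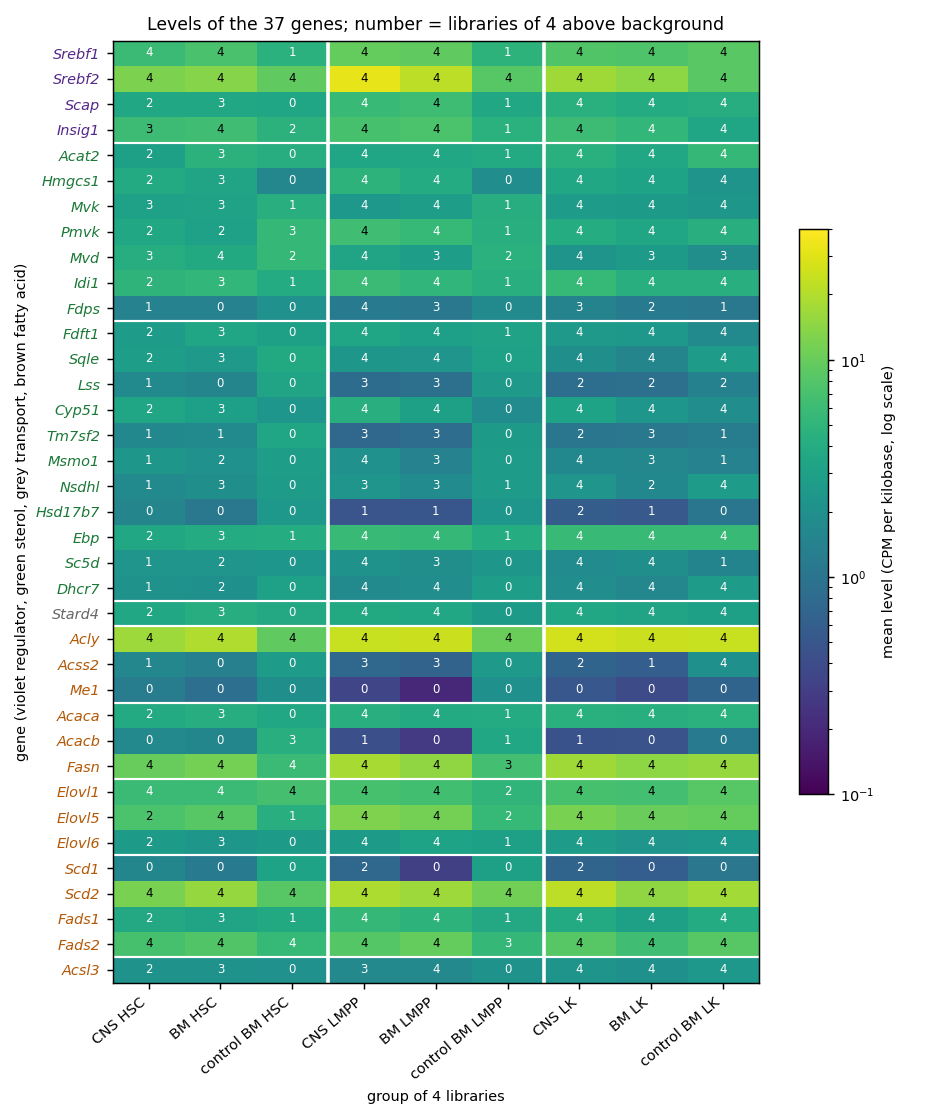
Mean level of each of the 37 genes (rows, by role) in each group of 4 libraries (columns), in CPM per kb on a log colour scale; the number in each cell counts the libraries of 4 in which the gene was above background. Acly, Scd2, Srebf2 and Fasn have the highest averages over the 9 groups, and control HSC and LMPP columns have few libraries above background.

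The first comparison asks whether leukaemia cells in the CNS carried other levels of these genes than those in the BM of the same mouse. No member passed the test over all 3 cell types: 0 of 37 members were called by edgeR's quasi-likelihood test at an adjusted p of 0.05, before any filter on background (the unfiltered test below), 1 (Scd1) had an unadjusted p under 0.05, and DESeq2 called 0. Over all genes tested, the same test called 0 of 40332 (0.0%), and 852 had an unadjusted p under 0.05. With the mouse as a block and genes above background only, 0 of 35 members were called, where 390 of 16267 genes (2.4%) were. In that fit 26 of 35 members lay above 0 on the log2 scale. The median log2 fold change was 0.10 for the 18 sterol enzymes (13 above 0) and 0.05 for the 12 fatty acid genes tested (10 above 0), beside -0.01 for all genes tested. Scd1, among these 12, passed the filter on background through CNS libraries only, so its place above 0 carries no weight. Unless stated otherwise, log2 fold changes below are from this blocked fit, with CNS minus BM.

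**Figure D3:**
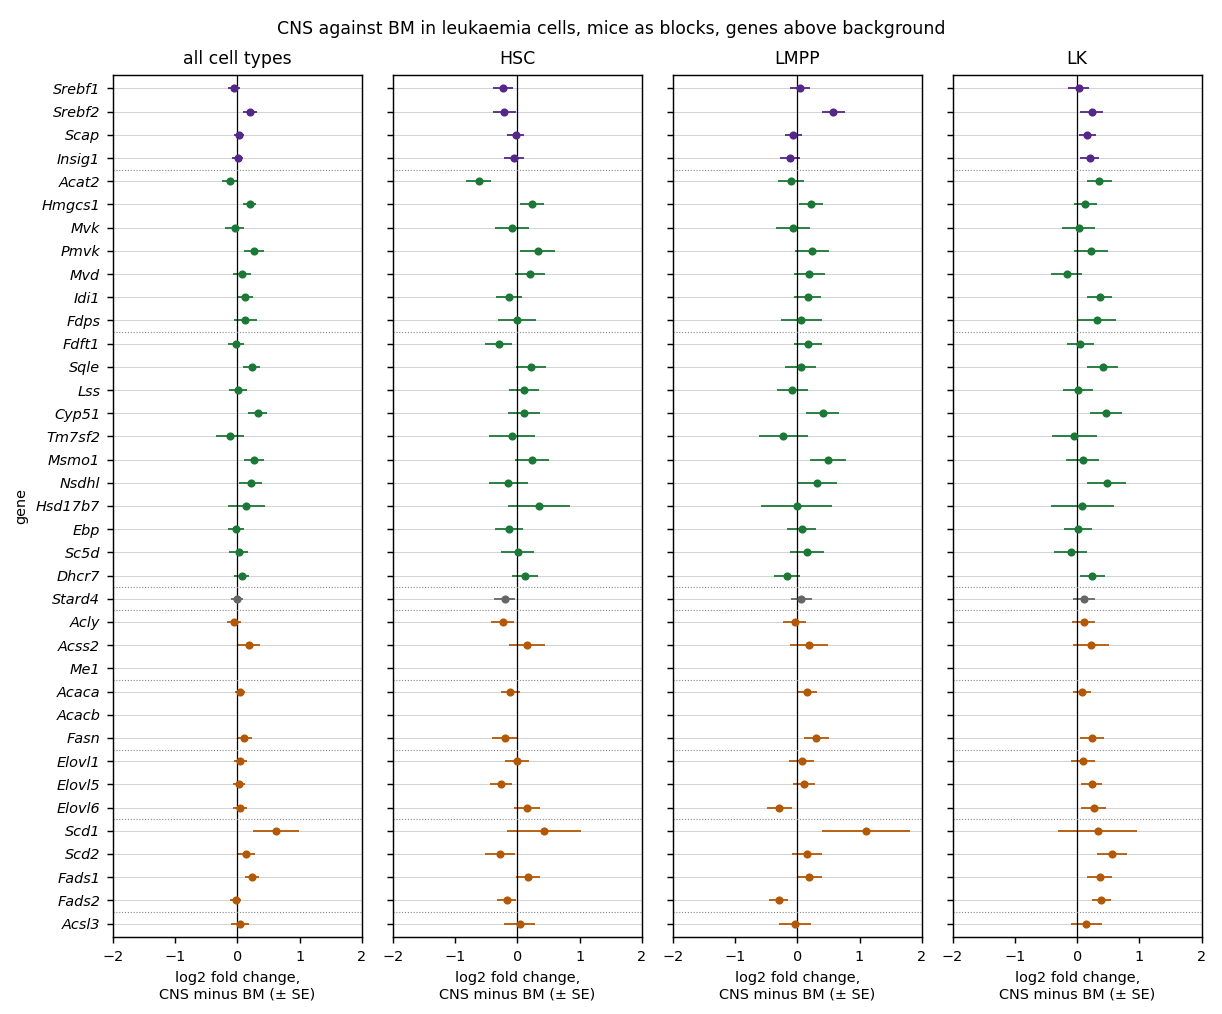
Log2 fold change, CNS minus BM, with its standard error, for the members above background, over all cell types and within each. Violet points are regulators, green sterol enzymes, grey the transport gene and brown fatty acid genes; in LK, 32 of 35 members lie above 0, and in HSC 15 of 35.

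Among the regulators, Srebf2 was the member nearest to a call. In LMPP it had 186, 260.3, 251 and 222 CPM in the CNS, against 117, 235, 145 and 134 CPM in the BM. It was higher in the CNS in 4 of 4 mice, although BM LMPP 2 lay among the CNS values. In the same LMPP fit 7 of 7 border macrophage genes lay above 0 (median log2 fold change 2.21), 9 of 10 microglia genes (median 1.35), 0 of 9 neutrophil genes (median -1.98) and 0 of 16 cell cycle genes (median -0.48). Summed, the border macrophage markers were at 124.8 to 272.5 CPM in CNS LMPP, against 23.3 to 221.8 CPM in BM LMPP, and the part of these markers in the result was not tested. The log2 fold change of Srebf2 was 0.58 ± 0.19 (edgeR adjusted p = 0.151). Srebf2 was called in 1 of 47 settings, with the mouse as a block and the libraries scaled on genes above background in at least 90% of them, where the value was 0.59 ± 0.14 (edgeR adjusted p = 0.0413); over the 47 settings the adjusted p ran from 0.0413 to 1. In LK, Srebf2 had 115, 126, 117 and 128 CPM in the CNS, against 90.5, 104, 115 and 105 CPM in the BM, higher in 4 of 4 mice but not called (0.23 ± 0.19). In HSC it had 147, 63.2, 93.3 and 49.6 CPM in the CNS, against 119.7, 111, 84.1 and 69.3 CPM in the BM, and the groups overlapped throughout. Insig1 had 22.1, 18.98, 15.7 and 18.5 CPM in CNS LK, against 16.6, 18.3, 15.1 and 15.3 CPM in BM LK, and its log2 fold change over all types was 0.01 ± 0.09. For Srebf1 and Scap the values over all types were -0.05 ± 0.09 and 0.02 ± 0.08.

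Among the mevalonate enzymes, Hmgcs1 and Pmvk (phosphomevalonate kinase) had log2 fold changes of 0.20 ± 0.11 and 0.26 ± 0.16, neither of them called. Hmgcs1 had 22.9, 14.3, 28.1 and 24.02 CPM in CNS LMPP, against 20.2, 18.02, 17.4 and 18.2 CPM in BM LMPP, with CNS LMPP 2 below every BM value. Pmvk was higher in the CNS in 10 of 12 mice. It had 8.37, 6.79, 4.71 and 4.55 CPM in CNS HSC, against 6.29, 5.05, 2.03 and 7.59 CPM in BM HSC, and these overlapped. Acat2, the cytosolic thiolase at the entry of the pathway, differed in sign between cell types. In HSC it had 7.62, 8.004, 9.54 and 5.76 CPM in the CNS, against 11.9, 10.5, 14.4 and 10.6 CPM in the BM, so the groups did not overlap and 4 of 4 mice were lower in the CNS. Acat2 was not above background in CNS HSC 2, where 0 of the 18 sterol enzymes were. In LK it had 11.4, 12.4, 10.4 and 11.8 CPM in the CNS, against 9.02, 6.35, 9.73 and 11.3 CPM in the BM, higher in 4 of 4 mice. The log2 fold changes were -0.62 ± 0.20 in HSC and 0.36 ± 0.20 in LK (edgeR adjusted p = 0.628 and 1). A test of the niche difference by cell type called 0 of 37 members and 0 of 40332 genes (0.0%), while 197 genes had an unadjusted p under 0.05; it gave Acat2 an adjusted p of 0.999 in the blocked fit. Idi1, which isomerises the isoprene unit, had 26.6, 19.4, 15.5 and 16.9 CPM in CNS LK, against 14.3, 20.6, 14.1 and 12.1 CPM in BM LK.

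Among the enzymes from squalene to cholesterol, Cyp51 (lanosterol demethylase) and Sqle (squalene epoxidase, a rate-controlling step) had the smallest p-values. Cyp51 had 25.7, 11.8, 12.5 and 9.905 CPM in CNS HSC, against 15.4, 12.2, 12.03 and 12.7 CPM in BM HSC. In LMPP it had 21.7, 9.74, 22.1 and 21.8 CPM in the CNS, against 15.9, 15.8, 8.99 and 12.8 CPM in the BM, and in LK 15.8, 15.9, 10.5 and 14.4 CPM in the CNS, against 9.84, 11.8, 11.03 and 8.35 CPM in the BM. In 3 of the 4 CNS LMPP libraries the level was above all BM LMPP values, while CNS LMPP 2 lay near the lowest of them. Over all types Cyp51 was higher in the CNS in 8 of 12 mice, by 0.33 ± 0.15 (edgeR adjusted p = 0.378). Sqle had 11.3, 13.8, 10.8 and 8.39 CPM in CNS LK, against 10.2, 10.3, 6.33 and 6.897 CPM in BM LK, and over all types a log2 fold change of 0.23 ± 0.14, with 9 of 12 mice higher; it was 0.138 without LMPP mouse 4. Msmo1, which removes the next methyl groups, had 0.49 ± 0.29 in LMPP, where it had 14.2, 7.54, 14.6 and 14.8 CPM in the CNS, against 11.9, 10.1, 2.64 and 10.1 CPM in the BM. The 2.64 CPM were those of BM LMPP 3, the library with the fewest counts. Stard4, the sterol transport gene, had -0.01 ± 0.10 over all types.

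Among the fatty acid genes, the supply and synthesis enzymes differed little between tissues. Over all types Acly had a log2 fold change of -0.06 ± 0.11, Acss2 (which makes acetyl-CoA from acetate) 0.19 ± 0.17 (0.0775 without LMPP mouse 1 and 0.0863 without HSC mouse 2), Acaca (the cytosolic acetyl-CoA carboxylase) 0.04 ± 0.09 and Fasn 0.11 ± 0.11. The desaturases gave the lowest p-values. Scd2 had 149.9, 93.4, 94.6 and 143 CPM in CNS LK, against 66.5, 79.5, 83.3 and 92.6 CPM in BM LK, with every CNS value above every BM value, although 2 of them by little, and 75.1, 60.4, 65.4 and 62.2 CPM in CNS HSC, against 97.8, 114, 92.9 and 37.4 CPM in BM HSC, where 3 of 4 BM values lay above all CNS values and BM HSC 4 below them. The log2 fold change was 0.55 ± 0.24 in LK (unadjusted p = 0.0346, edgeR adjusted p = 1) and -0.28 ± 0.24 in HSC. Fads1 (delta-5 desaturase) had 20.5, 20.2, 16.4 and 17.2 CPM in CNS LK, against 17.9, 11.4, 13.8 and 14.99 CPM in BM LK, and 0.24 ± 0.11 over all types. Fads2 (delta-6 desaturase) had 32.3, 31.96, 18.4 and 28.9 CPM in CNS LK, against 20, 20.7, 16.8 and 26.8 CPM in BM LK, a log2 fold change of 0.39 ± 0.16, and -0.30 ± 0.16 in LMPP. Scd1 had the lowest p of all members without the block (0.67 ± 0.31, unadjusted p = 0.0362), at 4.51, 5.97, 3.05 and 0.815 CPM in CNS LMPP, against 0.858, 1.25, 1.59 and 2.405 CPM in BM LMPP. It was above background in only 4 of the 24 leukaemia libraries, all of them CNS. Me1, never above background, was tested only without the block (0.37 ± 0.43).

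By cell type, 0 of 35 members were called by edgeR in HSC, LMPP or LK, where 0.0%, 1.79% and 0.00615% of 16267 genes were; DESeq2 called 0 in each, and 1, 1 and 2 members had an unadjusted p under 0.05. LK was the type in which the members most often lay above 0: 15 of 18 sterol enzymes (median log2 fold change 0.11) and 12 of 12 fatty acid genes (median 0.24), beside a median of 0.01 over all genes tested. In LMPP the counts were 12 of 18 (median 0.11) and 8 of 12 (median 0.13), and in HSC 10 of 18 (median 0.06) and 5 of 12 (median -0.06). Neither count is a test, since genes of a library share its scaling. Scd1, which passed the filter on background through CNS libraries only, is among the 12 fatty acid genes here and in the medians per mouse. Per mouse, the median log2 ratio of the sterol enzymes was above 0 in 9 of 12 mice (-0.28 to 0.50) and that of the fatty acid genes in 7 of 12 (-0.18 to 0.41). The gap between the branches was widest in LMPP, where sterol minus fatty acid medians ran from -0.405 to 0.672 between mice. The 0.672 was that of LMPP mouse 3, whose BM library held the fewest counts of all. In LK both medians were above 0 in 4 of 4 mice, with sterol medians of 0.11 to 0.31 and fatty acid medians of 0.09 to 0.41. Over all 12 mice the difference between the branches had a median of 0.02 and an SD of 0.31. In the same LK fit 2 of 9 neutrophil markers and 6 of 7 erythroid markers lay above 0 (medians -2.33 and 1.49), none of them called, and their part in these values was not tested.

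**Figure D4:**
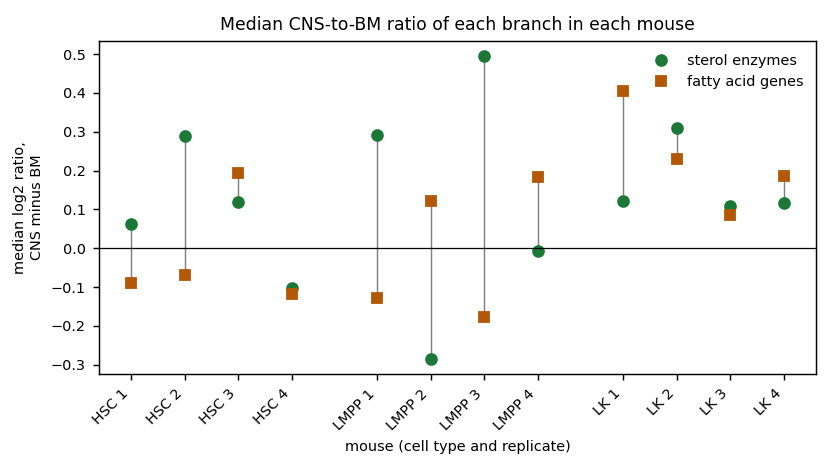
Median log2 ratio, CNS minus BM, of the sterol enzymes (green circles) and the fatty acid genes (brown squares) in each of the 12 leukaemia mice, joined by a line. All 4 LK mice have both medians above 0, and LMPP mice 1, 2 and 3 have the widest gaps between branches.

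Within the leukaemia, the cell types were compared in each tissue, using genes above background and no mouse term, since each mouse gave 1 cell type. In the BM, 0 of 35 members differed between HSC and LK, between LMPP and LK or between HSC and LMPP, where 0.0307%, 0.0184% and 0.0615% of 16267 genes were called by edgeR. At an unadjusted p under 0.05 there were 5, 6 and 9 members and 2982, 840 and 3739 genes, and DESeq2 called 0, 0 and 2 members. Without the filter, edgeR called 0 of 37 members in each. In the CNS, 7 of 35 members differed between HSC and LMPP, where 14.6% of genes were called (6.09% higher, 8.53% lower in HSC), and 3 of 35 between HSC and LK, where 9.36% were (2.76% higher, 6.6% lower). Between CNS LMPP and CNS LK 0 of 35 were called, where 0.498% of genes were, 4 members and 1983 genes had an unadjusted p under 0.05 and DESeq2 called 0 members. Without the filter on background, edgeR called 0 of 37 members in each of these, where it called 11 genes (0.0273%) for HSC against LMPP, 0 (0.0%) for HSC against LK and 2 (0.00496%) for LMPP against LK. In the BM it called 1 gene (0.00248%) for LMPP against LK and 0 (0.0%) in the other 2 contrasts.

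Srebf2 led the difference between CNS HSC and CNS LMPP, with the CPM given above: 3 of 4 HSC libraries were at 93.3 CPM or less, and every LMPP library was above the highest HSC value. The log2 fold change, HSC minus LMPP, was -1.38 ± 0.27 (edgeR adjusted p = 0.00686), and it was called in 6 of 31 settings, at -2.75 to -0.89 over all of them. The 5 ways of testing set side by side here were the unfiltered test, the same with DESeq2's size factors, DESeq2, edgeR on genes above background, and the last scaled on genes measured in nearly all libraries. Fasn had 135, 78.7, 131 and 85.7 CPM in CNS HSC, against 158, 214, 179 and 252 CPM in CNS LMPP and 216, 160.2, 169 and 209 CPM in CNS LK. It was lower in HSC, with log2 fold changes of -0.90 ± 0.23 against LMPP and -0.81 ± 0.23 against LK (edgeR adjusted p = 0.0157 and 0.0327), with no overlap in either. Scap, Srebf1 and Elovl5 (an elongase of polyunsaturated chains) were also lower in HSC than in LMPP, with -0.69 ± 0.18, -0.69 ± 0.19 and -0.77 ± 0.25. Scap had 25.5, 30.5, 29.7 and 21.7 CPM in CNS HSC, against 33.7, 44.7, 45.3 and 49.8 CPM in CNS LMPP. Scd2 was lower in HSC than in LK (-0.87 ± 0.26, edgeR adjusted p = 0.0417). Lss (lanosterol synthase) and Tm7sf2 (a sterol reductase) were called higher in HSC than in LMPP (1.07 ± 0.30 and 1.16 ± 0.37), and Lss higher than in LK (1.01 ± 0.30), but they were above background in only 1 of 4 CNS HSC libraries each. The direction of Scap, Srebf1, Elovl5 and Scd2 held in all 5 ways of testing, while Srebf2 and Fasn were the only ones of the 7 past the threshold and lower in the 4 ways other than the unfiltered test. Only Acly, Scd2, Srebf2 and Fasn, with Fads2, Srebf1 and Elovl1, were above background in all 4 CNS HSC libraries, and CNS HSC 2 and 4 held 41.3 and 37.1% background in the counts of the 37 genes.

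Leaving out CNS HSC 1 changed these results most. Without it, the unfiltered test called 18 members lower in CNS HSC than in CNS LMPP and 15 lower than in CNS LK. With all libraries that test called 0 in each. The share of all genes called without CNS HSC 1 is not given here. Whether these counts are particular to the members was thus not tested. CNS HSC 1 was the CNS HSC library with the least background and the most microglia RNA; the part of either in the result was not tested. Of the BM libraries, Ebp, which shifts a sterol double bond, had 10.5, 9.33, 6.04 and 10.6 CPM in BM HSC, against 13.7, 9.44, 15.7 and 14.9 CPM in BM LK, and Scap had 28.03, 32.05, 23.9 and 25.1 CPM in BM HSC, against 33, 48.9, 58.7 and 43.9 CPM in BM LMPP. The log2 fold change of Srebf2 in the BM, HSC minus LMPP, was -0.72 ± 0.27 and was not called (edgeR adjusted p = 0.163).

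Further members had small p-values in the unfiltered test between leukaemia cell types, none of them called by it. Acacb had 7.48, 9.79, 10.1 and 32.3 CPM in BM HSC, 1.27, 0.834, 2.12 and 6.56 CPM in BM LMPP and 5.804, 5.598, 5.38 and 0.937 CPM in BM LK, and was above background in 0 of these 12 libraries. Pmvk had 8.74, 10.3, 14.8 and 9.51 CPM in CNS LMPP and 4.96, 7.91, 8.76 and 6.14 CPM in CNS LK, beside the HSC values above, so LMPP and LK overlapped. Mvd, which makes the isoprene unit from mevalonate diphosphate, had 7.51, 4.87, 6.93 and 5.16 CPM in CNS LMPP, against 2.599, 4.95, 4.75 and 4.09 CPM in CNS LK. None of these 3 genes was called by edgeR between leukaemia cell types in the BM, or between LMPP and LK in the CNS. Among the elongases, Elovl1 had 18.2, 15.2, 13.8 and 17.7 CPM in BM HSC, against 15.8, 21.2, 23.01 and 13.4 CPM in BM LK, and Elovl6 had 17.6, 17.1, 9.76 and 17.01 CPM in BM HSC, against 19.9, 16.7, 28.03 and 19.4 CPM in BM LMPP. Sqle had 11.1, 9.51, 20.6 and 9.51 CPM in BM LMPP, which BM LMPP 3 led, and Fads1 had 14.4, 31.4, 25.4 and 21.3 CPM there, beside their LK values above. On genes above background, Scap had the smallest p of the members in the BM, LMPP minus LK (0.61 ± 0.18, edgeR adjusted p = 0.535). Insig1 came next, with 0.48 ± 0.16 (edgeR adjusted p = 0.606). In the CNS, Srebf2 had the smallest p, LMPP minus LK (0.92 ± 0.27, edgeR adjusted p = 0.118). With the CPM given above, every CNS LMPP library lay above every CNS LK library. Srebf2 was called only with scaling on shared genes (0.96 ± 0.19, edgeR adjusted p = 0.0233). DESeq2 gave an adjusted p of 0.0531. Fdft1, the squalene synthase gene, had 0.45 ± 0.20 and Hmgcs1 0.45 ± 0.21 (edgeR adjusted p = 0.36 and 0.375), and neither was called.

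In control BM the same contrasts could not be given a direction that held for the branches as wholes. With the unfiltered test, 27 of 37 members differed between HSC and LK (1 higher and 26 lower in HSC), where 45.4% of all genes were called (20.8% higher, 24.6% lower), and 26 differed between LMPP and LK (1 higher and 25 lower), where 45.3% were (22.2% higher, 23.1% lower). On genes above background there were 17 calls of 29 between HSC and LK (7 higher and 10 lower), where 74.0% of genes were called, and with scaling on genes measured in nearly all libraries 25 of 29, each of them higher, as were 69.3% of genes. The median of all genes above background moved with them, being -1.52, -0.27 and 0.96 on the log2 scale under the 3 settings. Called with 1 sign in all 5 ways of testing was 1 member between HSC and LK (Acacb, higher, beside 16.5% of genes) and 0 between LMPP and LK (14.3% of genes). Acacb was near background, above it in only 6 of the 36 libraries. In control HSC, the group where it was called higher, background took 32.4 to 39.7% of the counts of the 37 genes. Between control HSC and control LMPP 0 of 37 were called by the unfiltered test, where 62 genes (0.149%) were, 3650 had an unadjusted p under 0.05 and DESeq2 called 0 members.

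On the scale set by genes above background, Fasn, Acly and Elovl5 lay lowest in control HSC. Their log2 fold changes, HSC minus LK, were -1.38 ± 0.17, -1.39 ± 0.18 and -1.15 ± 0.16. The median of all genes above background was not subtracted from these values. Fasn had 61.8, 64.05, 65.96 and 68.3 CPM in control HSC, 54.3, 76.1, 73.1 and 90.1 CPM in control LMPP and 186, 173, 156 and 162 CPM in control LK. Acly had 44.97, 43.2, 52.8 and 52.5 CPM in control HSC, 40.5, 55.9, 50.9 and 75.1 CPM in control LMPP and 135, 127, 116 and 128 CPM in control LK. In both genes LK lay above HSC and LMPP with no overlap, and HSC and LMPP overlapped. Srebf2 had 64.6, 66.3, 69.7 and 66.8 CPM in control HSC, 45.02, 60.9, 62.3 and 75.7 CPM in control LMPP and 62.8, 63.7, 57.7 and 61.5 CPM in control LK, and on this scale its HSC and LK levels differed by 0.12 ± 0.16. Elovl5 had 14.1, 14.4, 15.3 and 18.2 CPM in control HSC, 14.9, 16.4, 23.96 and 23.4 CPM in control LMPP and 39.03, 33.2, 31.4 and 32.5 CPM in control LK. Hmgcs1 had 6.63, 9.54, 6.74 and 6.501 CPM in control HSC, against 10.2, 10.03, 11.1 and 9.71 CPM in control LK, and was above background in 0 of the 4 HSC libraries. Elovl1, an elongase of very long chains, had 10.6, 17.6, 13.2 and 13.8 CPM in control LMPP, against 22.7, 21.8, 24.8 and 22.03 CPM in control LK, and Fads2 had 17.2, 16.3, 17.3 and 20.9 CPM in control LMPP, against 22.7, 29.6, 25.5 and 32.3 CPM in control LK. Cell cycle markers summed to 466 to 542 CPM in control HSC and 518 to 1214 CPM in control LMPP, against 2008 to 2249 CPM in control LK.

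A ratio of 2 members within a library does not depend on how libraries are scaled, so the ratio of background-subtracted counts of Srebf2 to those of Fasn was taken, a pair chosen after its values were seen. It was 1.19, 1.17, 1.17 and 1.07 in control HSC, 0.925, 0.839, 0.91 and 0.863 in control LMPP and 0.333, 0.36, 0.357 and 0.373 in control LK, and none of these ranges overlapped. In CNS HSC it was 1.09, 0.85, 0.712 and 0.561, and in BM HSC 1.01, 0.749, 0.54 and 0.981. In CNS LMPP it was 1.19, 1.22, 1.41 and 0.882, and in BM LMPP 0.792, 1.26, 0.854 and 0.968. In CNS LK it was 0.531, 0.791, 0.694 and 0.611, and in BM LK 0.55, 0.759, 0.663 and 0.648. In LK, every leukaemia library of either tissue thus had more Srebf2 for its Fasn than every control library. In HSC the leukaemia libraries ran from 0.54 to 1.09 and control HSC from 1.07 to 1.19. These HSC ranges overlapped, since CNS HSC 1 lay within that of control. With Acly in place of Fasn the LK ranges were 0.645 to 1.03 in the CNS and 0.668 to 0.946 in the BM, against 0.453 to 0.484 in control. Background was at most 7.7% of the Srebf2 counts and 4.34% of the Fasn counts in control LK, but up to 27.6% of the Fasn counts in control HSC and 35.5% in control LMPP.

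The balance of the branches as wholes was taken in the same way, as the summed level per kb of the 18 sterol enzymes over that of the 14 fatty acid genes after subtraction of the background. Its median was 0.521 in CNS HSC, 0.472 in BM HSC and 0.756 in control HSC. In LMPP the medians were 0.523 in the CNS, 0.467 in the BM and 0.616 in control, and in LK 0.412 in the CNS, 0.434 in the BM and 0.394 in control. The LK values were close in every group, from 0.367 to 0.466 in the CNS, 0.385 to 0.468 in the BM and 0.391 to 0.399 in control. In control HSC the range was 0.686 to 0.875, but only 1 to 3 of the 18 sterol enzymes were above background there, and the subtraction cannot go below 0, so this sum rests on counts near background.

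The last comparison sets leukaemia BM against control BM, cell type by cell type. The leukaemia and control libraries came in separate tables with different microRNA constructs, so disease, construct and table cannot be told apart. For HSC and LMPP the direction of the members depended on the scaling. The unfiltered test called 18 of 37 higher and 0 lower in leukaemia HSC (20.6% of genes called, 19.2% higher and 1.37% lower), and 28 higher and 4 lower in leukaemia LMPP (66.2% of genes, 25.6% higher and 40.7% lower). Scaling on genes measured in nearly all libraries called 0 higher and 29 lower in HSC, where 61.9% of genes were lower, and 0 higher and 24 lower in LMPP, where 67.6% were, of 34 tested. Called with 1 sign in all 5 ways of testing were 0 members in HSC (7.11% of genes) and 1 in LMPP (Acacb, lower; 18.7% of genes), a gene above background in 0 of 4 BM LMPP and 1 of 4 control LMPP libraries. These control libraries also serve in the comparison of control cell types. Acly had 107, 116, 117 and 70.7 CPM in BM HSC, against 43.2 to 52.8 CPM in control HSC, and 129.9, 125, 145 and 119 CPM in BM LMPP, against 40.5 to 75.1 CPM in control LMPP. Hmgcs1 had 18.7, 15.5, 13.02 and 13.3 CPM in BM HSC, against 6.501 to 9.54 CPM in control HSC, where it was at background.

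LK was the type with similar background in both arms, 0.945 to 9.74% of the counts of the 37 genes in BM LK, against 5.97 to 12.97% in control LK. The unfiltered test called 1 of 37 members, Acss2, where 3.81% of genes were called (2.31% higher, 1.5% lower), and on genes above background 7 of 34 members, where 16.7% of genes were (10.8% higher, 5.97% lower). Of the 7, 3 were higher in leukaemia (Srebf2, Insig1 and Hmgcs1) and 4 lower (Acss2, Sqle, Dhcr7 and Acat2). The medians were 0.00 for sterol enzymes, -0.26 for fatty acid genes and 0.00 for all genes above background. The share of members called was thus close to that of all genes, with both signs among the sterol enzymes.

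Acss2 was lower in leukaemia LK in all 5 ways of testing, as were 1.8% of genes. It had 8.58, 6.85, 5.99 and 2.81 CPM in BM LK, against 19.04, 20.1, 23.4 and 19.7 CPM in control LK, with a wide gap between the groups, and 7.89, 10.01, 7.03 and 3.299 CPM in CNS LK. The log2 fold change was -1.75 ± 0.28 on genes above background and -1.52 ± 0.30 in the unfiltered test (edgeR adjusted p = 0.000105 and 0.00105). Over all settings, leaving out each library included, it was called in 30 of 30, between -1.88 and -1.33. Acss2 was above background in 1 of 4 BM LK and 4 of 4 control LK libraries, and 9.12% of its exon length overlaps genes on the other strand (Acss2os, Ggt7 and Gss).

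The 3 members higher in leukaemia LK were the regulators Srebf2 and Insig1 and the mevalonate enzyme Hmgcs1. On genes above background, 10.8% of all genes were higher. The regulators Srebf1 and Scap were not called, and Acat2, also of the mevalonate pathway, was called lower. Srebf2, with the CPM given above, had a log2 fold change of 0.75 ± 0.20 (edgeR adjusted p = 0.00942), and every BM LK library lay above every control library. It was past the threshold in 4 of the 5 ways of testing, the unfiltered test being the exception (edgeR adjusted p = 0.121). Insig1 had 16.6, 18.3, 15.1 and 15.3 CPM in BM LK, against 9.87, 11.5, 10.8 and 9.95 CPM in control LK, again with no overlap (0.63 ± 0.15, edgeR adjusted p = 0.00393). Hmgcs1 had 13.2, 18.4, 12.1 and 15.8 CPM in BM LK, against 10.2, 10.03, 11.1 and 9.71 CPM in control LK (0.53 ± 0.17, edgeR adjusted p = 0.029). Insig1 was past the threshold in 3 of the 5 ways of testing and Hmgcs1 in 2.

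The 3 sterol enzymes lower in leukaemia LK were at low levels, as was Hmgcs1. Over the 9 groups Sqle, Dhcr7 and Acat2 averaged 2.58, 2.22 and 4.035 CPM per kb, beside 3.18 for Hmgcs1. Sqle had 10.2, 10.3, 6.33 and 6.897 CPM in BM LK, against 12.6, 15.96, 16.3 and 16.1 CPM in control LK (-0.85 ± 0.25, edgeR adjusted p = 0.0183). Dhcr7, the last reductase before cholesterol, had 10.8, 10.6, 7.62 and 8.601 CPM in BM LK, against 16.9, 13.2, 15.3 and 16.9 CPM in control LK (-0.73 ± 0.21, edgeR adjusted p = 0.0171). Acat2 had 9.02, 6.35, 9.73 and 11.3 CPM in BM LK, against 14.2, 13.3, 13.98 and 13.4 CPM in control LK (-0.59 ± 0.20, edgeR adjusted p = 0.0409). In none of the 3 did the groups overlap. The share of all genes whose groups did not overlap is not given here. A lack of overlap thus only describes the values of a member, here and in the other comparisons. None of the 3 was called by the unfiltered test, Sqle in 3 of the 5 ways and Dhcr7 and Acat2 in 2. Fasn and Acly, the synthase and the citrate lyase of the fatty acid branch, differed by -0.09 ± 0.18 and 0.04 ± 0.17 and were not called.

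**Figure D5:**
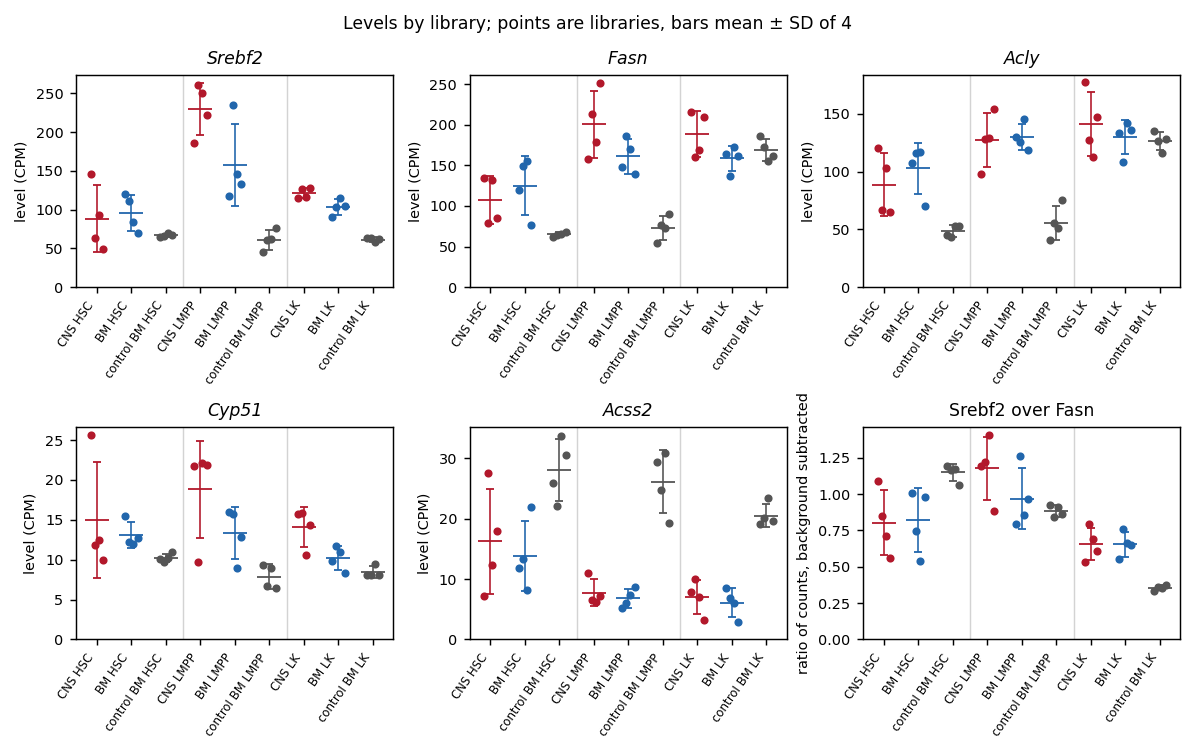
CPM of Srebf2, Fasn, Acly, Cyp51 and Acss2, and the ratio of background-subtracted counts of Srebf2 to those of Fasn, in each of the 36 libraries (points; bars are mean ± SD of 4). CNS libraries are red, BM libraries of leukaemia mice blue and control libraries grey; in LK, Acss2 is lower and the Srebf2 to Fasn ratio higher in leukaemia than in control.

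The cells in the LK gate differed in other markers between the arms. Mature neutrophil markers summed to 394 to 7502 CPM in BM LK, against 22.7 to 32.5 CPM in control LK, and erythroid markers to 118 to 225 CPM in BM LK, against 476 to 626 CPM in control LK. Klf1, an erythroid transcription factor, averaged 0.954 CPM in BM LK, against 40.1 CPM in control LK (-5.33 ± 0.49, edgeR adjusted p = 1.06e-07). The part of these markers in the differences of Acss2, Srebf2 and the other members was not tested.

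Genes of neighbouring pathways were counted beside the share of all genes called. In the blocked fit of CNS minus BM over all cell types, 1.57% of all genes were higher and 0.83% lower. There 0 of 6 genes of SREBP processing outside the 37, 0 of 10 genes that use isoprenoids and 0 of 18 genes of fatty acid oxidation passed the test. Of 9 tested genes of sterol efflux and esterification 1 was higher in the CNS, Arl4c, a small GTPase gene (0.85 ± 0.14, edgeR adjusted p = 0.00732), and of 15 genes of glycerolipid synthesis 1, Agpat3, an acyltransferase gene (1.18 ± 0.23, edgeR adjusted p = 0.0183). Among markers in the same fit, 1 of 10 microglia genes (C1qb) and 2 of 7 tested border macrophage genes (Apoe and Pf4) were higher, and 2 of 9 tested neutrophil genes (Camp and Ltf) and 2 of 16 cell cycle genes (Kif11 and Cdk1) lower. None of the 7 erythroid, 3 oligodendrocyte, 1 astrocyte, 3 endothelial and 6 progenitor genes tested was called, and none of the 6 neuron genes could be tested. With the libraries scaled on shared genes, where 2.11% of all genes were higher and 1.0% lower, 3 of 9 efflux and esterification genes were higher and 5 of 16 cell cycle genes lower.

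In leukaemia LK against control LK, on genes above background, 10.8% of all genes were higher and 5.97% lower. Of the lists, 2 of 9 efflux and esterification genes were higher (Mylip and Npc2), and of 15 glycerolipid genes 5 were higher and 3 lower, with Agpat2 and Agpat3 at opposite ends (1.24 ± 0.23, edgeR adjusted p = 0.000391 and -1.63 ± 0.38, edgeR adjusted p = 0.00371). Of the oxidation genes 1 of 18 was lower (Etfdh, -0.46 ± 0.14, edgeR adjusted p = 0.0291), of the isoprenoid genes 1 of 10 higher (Pggt1b, 0.45 ± 0.14, edgeR adjusted p = 0.0293), and of the SREBP processing genes 0 of 6 were called. Scaled on shared genes, 2 glycerolipid genes were higher and 3 lower, where 7.42% of all genes were higher and 6.64% lower, and 0 of 10 isoprenoid genes were called. These lists were picked for their place in the pathway and not tested as sets.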

How the data were processed

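Total RNA of 36 sorted-cell libraries was made with the SMARTer stranded pico total RNA kit, per the labels' protocols. The deposited values are whole-number counts per gene in 2 tables, 1 for leukaemia and 1 for control, and although the tables are named as normalised, their sums differ between libraries, so they were taken as raw counts. The submitters' processing notes name DESeq2 and GRCm39; aligner, counter and strandedness of counting: not given in the sources used here. The treatment of reads shared by close copies (Scd1 and Scd2, Acat2 and its paralogue) or by overlapping genes is likewise not given. GRCm39 coordinates were not printed; promoter sequences are from RefSeq tables of GRCm38.p6.

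Counts were tested with edgeR 4.0.16 (R 4.3.3) by its quasi-likelihood test after TMM scaling, on genes that reached 10 counts in 4 or more libraries of the fit, with Benjamini-Hochberg adjustment over all genes tested and a threshold of 0.05. Leukaemia libraries (24), control libraries (12) and BM libraries of both tables (24) were each fitted together. Since the TMM factors followed the background, 4 further tests were set beside it: size factors (RLE) in edgeR, DESeq2 1.42.0, edgeR on genes above background, and the same scaled on genes above background in at least 90% of libraries, the last chosen after seeing the data. Errors are standard errors, taken as the fold change over the root of F. Per-mouse ratios used a pseudocount of 0.5 CPM. Simulated counts were used to check the fits.

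BM and CNS libraries with the same number came from the same mouse, as the labels' mouse identifiers show, so the mouse could serve as a block. The deviations of the 12 pairs from their group means correlated with a median r of 0.27 (-0.34 to 0.70), and 8 of 12 pairs were over 0.1. Control libraries with the same number also came from 1 mouse (median r 0.04). Where nothing else separates the samples, p-values measure the spread between mice. Values by library are given for the members with the smallest p between CNS and BM over all cell types (up to 4 sterol enzymes, 4 fatty acid genes and 2 regulators or transport genes), for up to 4 with the smallest p in each other comparison, and for others described with them. The members, the gene lists and these tests were chosen with earlier results of these data known.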

Additional observations from a re-analysis of the deposited data

Results flagged for a closer look

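In 135 combinations of 15 genes and 9 groups, 10 had 1 library far from the other 3, where chance gives about 1 in 20. Cyp51 had 25.7 CPM in CNS HSC 1, against 9.91 to 12.5 CPM in the other CNS HSC libraries, and 9.74 CPM in CNS LMPP 2, against 21.7 to 22.1 CPM in the others. In control LK 3 it had 9.52 CPM, against 8.02 to 8.07 CPM. Fads1 had 41.3 CPM in the same library, CNS LMPP 2, against 20.5 to 22.5 CPM in the other CNS LMPP libraries. Sqle had 20.6 CPM in BM LMPP 3, the library with the fewest counts, against 9.51 to 11.1 CPM. In control LK 1 it had 12.6 CPM, against 15.96 to 16.3 CPM. Hmgcs1 had 9.54 CPM in control HSC 2, against 6.501 to 6.735 CPM, and Insig1 16.4 CPM in CNS HSC 2, against 19.4 to 19.9 CPM. BM HSC 4 was apart for both Me1, with 8.37 CPM against 1.45 to 2.01 CPM, and Scd1, with 12.2 CPM against 3.37 to 3.78 CPM. In that library the background made up 36.3% of the counts of the 37 genes, against 9.10 to 9.73% in the other BM HSC libraries.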

How the results depend on the processing

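No member was called between CNS and BM over all cell types, in HSC or in LK under any setting tried. The calls counted below are of members, and the share of all genes called changed with the setting too. In CNS HSC against LMPP it was 0.0273% in the unfiltered test and 14.6% on genes above background. Scaled on shared genes, 61.9% of all genes were lower in leukaemia HSC than in control HSC. The counts are thus not particular to the members. The replicate block (mouse as block) gave 1 call in LMPP, on genes above background scaled on shared genes, and changed no other call between tissues; in control BM, on genes above background, it gave 15 calls for HSC against LK and 14 for LMPP against LK, where 17 and 15 were called without it. DESeq2 called 2 members in BM HSC against LMPP, 5 in CNS HSC against LK, 12 in CNS HSC against LMPP and 6 in leukaemia against control LK. Size factors in edgeR called 3 in CNS HSC against LMPP and 4 in leukaemia against control LK. On genes above background the calls were 3 in CNS HSC against LK, 7 in CNS HSC against LMPP, 19 in leukaemia against control LMPP and 7 in LK. Scaled on shared genes they were 12 in CNS HSC against LK, 10 in CNS HSC against LMPP, 1 in CNS LMPP against LK, 1 in control HSC against LMPP, 29 in leukaemia against control HSC and 5 in LK. Without the mice of CNS HSC 1 and BM LMPP 3 the unfiltered test called 15 and 4 members in CNS HSC against LK and against LMPP. The log2 fold change of Insig1 between CNS and BM turned to -0.0870 without these mice in the unfiltered test. It turned to -0.0101 without the same mice in the blocked fit on genes above background. Leaving out each library gave 0 to 15 calls in CNS HSC against LK, 0 to 18 in CNS HSC against LMPP, 26 to 28 and 23 to 27 in control HSC and LMPP against LK, and 15 to 22, 28 to 34 and 1 to 3 in leukaemia against control HSC, LMPP and LK. Leaving out each control mouse in the blocked fit gave 9 to 12 and 9 to 10. Insig1 ran from -0.0103 (without CNS HSC 1) to 0.20, and from -0.0378 to 0.0431 with each mouse left out of the blocked fit, where it was -0.0378 without HSC mouse 4, -0.0121 and -0.0268 without LMPP mice 3 and 4 and -0.0155 without LK mouse 1. The branch medians between CNS and BM were 0.05 to 0.20 (sterol) and 0.05 to 0.25 (fatty acid) with each library left out, and 0.0241 to 0.126 and 0.0269 to 0.1001 with each mouse left out of the blocked fit, lowest without LMPP mouse 1 and LK mouse 1. Without the mice of CNS HSC 1 and BM LMPP 3 the sterol median of the unfiltered test was -0.0202. The cause of these shifts was not tested. Background limits the control HSC and LMPP values and 3 leukaemia HSC libraries, where it took 36.3 to 41.3% of the members' counts.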
